A study of Mus musculus with 32 samples.

Results

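The genes described here encode the tricarboxylic acid (TCA) cycle, the pyruvate dehydrogenase complex that feeds it, and the branch that turns cycle intermediates into itaconate and cytosolic citrate. The list of 33 genes was taken from knowledge of the pathway and not from measured values, though earlier results of these data were known when it was chosen. Each gene was represented by its transcript with the highest mean count. All 33 were among the 25067 genes of the table. Of these, 32 were among the 11279 genes with a mean above 1 RPKM (reads scaled to transcript length and library size) in at least 1 group. The exception was Pdk4, which had 1 count in 1 library and 0 in the other 31.

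RNA was sequenced from bone marrow-derived macrophages of mice, either wild type (BMDM-WT) or lacking the nuclear receptor Nur77 (BMDM-Nur77-KO). Nur77 is encoded by Nr4a1. For the knockout, C57Bl6/J mice with CMV-Cre were bred with mice that carry a loxP-flanked Nr4a1 gene. The paper does not give the strain of the loxP mice. The gene was deleted in the whole body, so that every cell of the knockout mice carries the deleted allele. The knockout mice used lacked Cre, and the wild types were their littermates. The marrow came from male mice of 6 to 12 weeks and was cultured for 7 days with L929-conditioned medium in both genotypes. The macrophages then received 100 ng/ml of lipopolysaccharide (LPS, a bacterial cell wall component) for 0, 1, 5 or 18 h, with 4 libraries in each of the 8 groups. The number of mice behind the 4 libraries of a group is not given in the sources used here, so p-values measure the spread between these libraries, which may be technical. Library totals ran from 8742362 to 15780926 counts. The 7 macrophage markers together stood between 10893 and 18233 CPM (counts scaled to library size and by TMM factors, the trimmed mean of M-values) in each library. Markers of neutrophils together reached at most 52.3 CPM, of dendritic cells 21.5 CPM, and of B cells, T cells, fibroblasts, erythroid cells and mast cells 5.34 CPM or less. In these bulk libraries, fewer cells of a type and less RNA per cell cannot be told apart.

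Nr4a1 itself checked the genotype labels at 0 h and 1 h. Its level in BMDM-WT was 19.2, 15.5, 25.5 and 18.1 at 0 h and 483, 483, 358 and 422 at 1 h, in CPM for replicates 1 to 4, and in BMDM-Nur77-KO it was 4.88, 4.57, 4.42 and 6.92 at 0 h and 244, 178, 146 and 194 at 1 h. The groups did not overlap at either time, and the difference on the log2 scale was -1.90 ± 0.19 (SE) at 0 h and -1.20 ± 0.15 at 1 h (edgeR adjusted p = 1.5e-08 and 1.8e-06). At 5 h the counts were 7, 8, 8 and 9 in BMDM-WT and 1, 2, 3 and 7 in BMDM-Nur77-KO, and at 18 h they were 5 or fewer in each library. The difference was -1.54 ± 0.55 at 5 h and -0.47 ± 0.69 at 18 h (edgeR adjusted p = 0.042 and 0.68). The gene thus checked the labels at 5 h only weakly and those at 18 h not at all. Reads of the gene remained in the knockout, most of all at 1 h. Among the libraries, BMDM-Nur77-KO replicate 1 at 5 h and replicate 4 at 18 h stood apart within their groups, with mean correlations to the rest of their groups of 0.965 and 0.980. The whole BMDM-Nur77-KO group at 5 h was loose, with replicates 2, 3 and 4 at 0.985, 0.980 and 0.979. By this measure its replicate 4 lay no closer to its group than replicate 4 at 18 h did. Results at those times are therefore also given without both.

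In the TCA cycle, acetyl-CoA from pyruvate joins oxaloacetate to form citrate, which is oxidised through isocitrate, 2-oxoglutarate, succinyl-CoA, succinate, fumarate and malate back to oxaloacetate. Macrophages that meet LPS are known to rework this cycle: citrate is exported and cleaved for lipid synthesis, succinate and itaconate build up, and itaconate, made from aconitate by Acod1, inhibits succinate dehydrogenase. Entry of pyruvate is set by kinases that switch pyruvate dehydrogenase off and by phosphatases that switch it on.

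Changes with LPS were tested against 0 h within each genotype, and a gene was called when its Benjamini-Hochberg adjusted p in edgeR's quasi-likelihood test was under 0.05. At 1 h in BMDM-WT, 1 of the 32 members was called higher and 2 lower, where 10.2% and 10.2% of all tested genes were called in those directions. The counts at 1 h in BMDM-Nur77-KO were 2 higher and 3 lower, beside 6.86% and 5.37% of all genes. At 5 h, 7 members rose and 11 fell in BMDM-WT (30.0% and 40.1% of all genes), and 7 rose and 13 fell in BMDM-Nur77-KO (32.2% and 39.1%). At 18 h, 8 rose and 12 fell in BMDM-WT (32.3% and 33.9%), and 6 rose and 12 fell in BMDM-Nur77-KO (33.7% and 35.5%). The share of members called was near or under that of all genes. Their median log2 fold change was -0.06 at 5 h and -0.05 at 18 h in BMDM-WT, beside -0.14 and -0.01 over all genes, and -0.19 and -0.03 in BMDM-Nur77-KO, beside -0.12 and -0.03. What differed was the direction from enzyme to enzyme, described below by role. Few changes were large. With a log2 fold change over 1 also required, the members called, beside the percent of all genes, were 1 higher (3.43%) and 0 lower (1.76%) at 1 h, 1 higher (15.7%) and 2 lower (18%) at 5 h, and 2 higher (13.1%) and 6 lower (14.3%) at 18 h in BMDM-WT. In the knockout they were 1 higher (3.23%) and 0 lower (1.3%) at 1 h, 1 higher (16%) and 3 lower (16.6%) at 5 h, and 2 higher (15.4%) and 8 lower (16.4%) at 18 h.

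These log2 fold changes are relative to the bulk of genes. With library totals in place of TMM factors, the median of all genes was -0.78 in BMDM-WT and -0.74 in BMDM-Nur77-KO at 5 h and -0.37 and -0.48 at 18 h. In BMDM-WT the calls over all genes then were 1864 higher and 7796 lower at 5 h, and the small rises at 5 h named below turned into falls. Where that happened, the value with library totals alone is given in brackets.

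**Figure D1:**
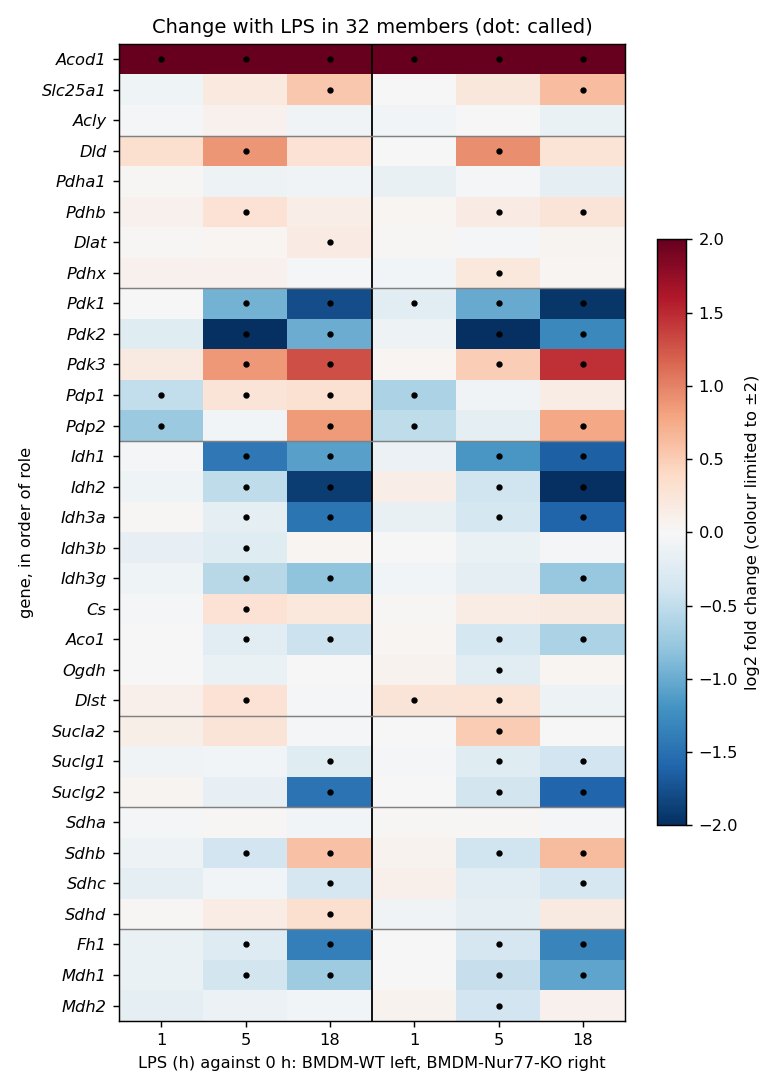
Log2 fold change with LPS against 0 h (colour, limited to 2 either way) for the 32 members, 1 gene a line in order of role, at 1, 5 and 18 h in BMDM-WT (left) and BMDM-Nur77-KO (right), with a dot where a gene was called. Acod1 rose in all 6 columns, Pdk3 rose beside falling Pdk1 and Pdk2, and Idh1, Idh2, Idh3a, Fh1 and Suclg2 were lower at 18 h in both genotypes. Of these, Pdk3 at 5 h in BMDM-Nur77-KO turned to -0.14 with library totals alone.

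Acod1 makes itaconate by decarboxylating cis-aconitate. Its level in BMDM-WT was 5.15, 5.21, 7.05 and 6.50 at 0 h, 264, 245, 201 and 262 at 1 h, 9409.7, 9227, 9838 and 9425 at 5 h, then 4451, 4443, 4459 and 4528 at 18 h, in CPM for replicates 1 to 4. Knockout libraries held 1.63, 1.94, 3.05 and 3.14 at 0 h, 203, 128, 271 and 176 at 1 h, 9336, 8869, 8271 and 8190.2 at 5 h, then 6356, 6067, 6296 and 6748 at 18 h. Every library at 1 h exceeded every library at 0 h, and the levels at 5 h and 18 h lay far above both, so that a gene near the bottom of the members became the most abundant of them.

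Per length, mean Acod1 RPKM in BMDM-WT went from 2.28 at 0 h to 92.5, 3612 and 1704, which moved it from rank 8997 to ranks 641, 12 and 22 among the 11279 genes. In BMDM-Nur77-KO the means were 0.930, 74.3, 3304 and 2427 RPKM, at ranks 10373, 788, 15 and 20. At 5 h the transcript took 0.751% of all counts in BMDM-WT and 0.680% in BMDM-Nur77-KO (means of 4 libraries). For comparison, the highest member other than Acod1 reached 129 RPKM in any group (Idh1 in BMDM-Nur77-KO at 0 h).

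The log2 fold change of Acod1 against 0 h in BMDM-WT was 5.34 ± 0.18 at 1 h, 10.63 ± 0.21 at 5 h and 9.55 ± 0.21 at 18 h. In BMDM-Nur77-KO it was 6.30 ± 0.19, 11.78 ± 0.23 and 11.33 ± 0.22, and all 6 changes were called, with edgeR adjusted p-values between 1.5e-27 and 3.3e-21. These responses placed the gene between ranks 4 and 37 from the top of all tested genes. Acod1 was the one member that rose with LPS in both genotypes at all 3 times.

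**Figure D2:**
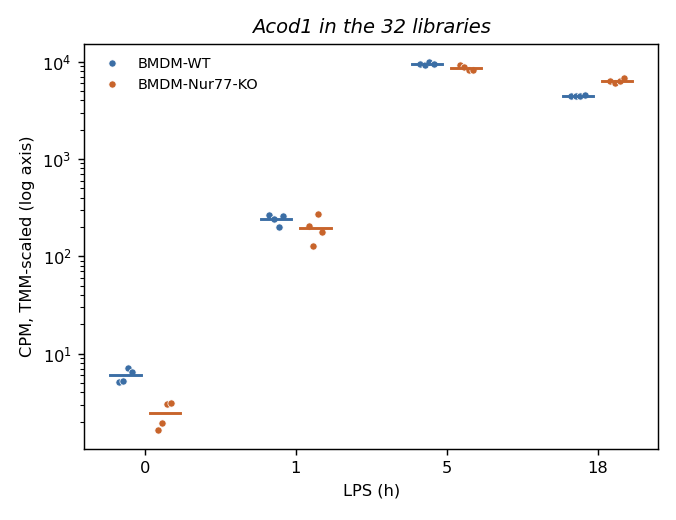
Acod1 in each library (points, CPM on a log axis) with group means (bars), by hours of LPS, for both genotypes. These lie apart at 0 h, where BMDM-Nur77-KO is lower (-1.28 on the log2 scale), overlap at 1 h and 5 h, and lie apart at 18 h, where it is higher (0.50).

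Between genotypes, knockout cells had less Acod1 at 0 h and more at 18 h. The difference was -1.28 ± 0.21 at 0 h (edgeR adjusted p = 6.3e-05), -0.32 ± 0.14 at 1 h, -0.12 ± 0.14 at 5 h (adjusted p = 0.22 and 0.52) and 0.50 ± 0.14 at 18 h (adjusted p = 0.0083). The libraries of the genotypes did not overlap at 0 h or 18 h. At 0 h the gene was represented by as few as 18 counts in a library, against 106020 at the most in the series. Both calls held under all 17 alternatives tried, with values of -1.42 to -1.14 at 0 h and 0.40 to 0.52 at 18 h. The fold change with LPS was larger in BMDM-Nur77-KO, by 0.96 ± 0.25 at 1 h (adjusted p = 0.26, not called), 1.15 ± 0.25 at 5 h (adjusted p = 0.0072) and 1.78 ± 0.25 at 18 h (adjusted p = 9.6e-06). The excess at 5 h and at 18 h includes the difference of the genotypes at 0 h, which was -1.28 at low counts. The differences at 5 h and 18 h themselves were -0.12 and 0.50. At 18 h the summed macrophage markers were also lower in BMDM-Nur77-KO, 10893 to 12348 CPM against 13866 to 14308 CPM in BMDM-WT, and their part in the differences at that time was not tested. At 1 h the summed neutrophil markers were 43.2 to 52.3 CPM in BMDM-Nur77-KO and 28.2 to 37.6 CPM in BMDM-WT, which was likewise not tested. The B cell markers at 0 h were lower in BMDM-Nur77-KO, 1.37 to 2.69 CPM against 2.80 to 4.65 CPM.

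Promoter sequence from RefSeq (GRCm38.p6) was available for 30 of the 33 members. The sequences of Acod1, the citrate carrier Slc25a1 and the kinase Pdk1 are shown because the first rose most, the second rose late and the third fell. They are the bases before the annotated start site, 5′ to 3′ on the strand of the gene, with matches to the searched motifs in capitals (TATAAA in Acod1, a match to the NF-kB motif in Slc25a1). The printed Acod1 sequence stops 20 bases short of the start site, and the transcript counted here is annotated to start slightly upstream of that site, before the TATAAA.
Acod1 (chr14:103046762-103046991, plus strand): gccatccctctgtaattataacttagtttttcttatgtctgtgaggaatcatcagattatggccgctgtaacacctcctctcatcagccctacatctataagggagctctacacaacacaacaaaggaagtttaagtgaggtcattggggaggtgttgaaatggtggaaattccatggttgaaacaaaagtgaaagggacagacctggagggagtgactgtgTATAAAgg
Slc25a1 (chr16:17928220-17928469, minus strand): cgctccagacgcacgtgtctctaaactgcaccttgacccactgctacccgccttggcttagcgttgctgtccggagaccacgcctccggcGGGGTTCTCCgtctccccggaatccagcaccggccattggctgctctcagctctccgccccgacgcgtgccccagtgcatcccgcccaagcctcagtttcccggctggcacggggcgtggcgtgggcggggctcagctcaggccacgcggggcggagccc
Pdk1 (chr2:71872974-71873223, plus strand): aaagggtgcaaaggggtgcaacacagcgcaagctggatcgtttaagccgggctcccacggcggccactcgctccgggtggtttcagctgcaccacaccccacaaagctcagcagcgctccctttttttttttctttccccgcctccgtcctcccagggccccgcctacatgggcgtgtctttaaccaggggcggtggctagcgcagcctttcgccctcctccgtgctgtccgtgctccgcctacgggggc
Over 250 bases before the start site, Acod1 held 2 CpG dinucleotides, while the other 29 members held 6 to 29, and 29.0% of the 32851 mouse promoter windows in the reference held 2 or fewer. The TATA box TATAAA was found in Acod1 alone of the 30, at bases -28 to -23 from the start site, and in 12.4% of all windows. The NF-kB motif matched in 7 of the 30 (Idh2, Sdhb, Dlst, Sucla2, Suclg2, Pdha1 and Slc25a1) and in 7.25% of all windows. The interferon-stimulated response element matched in 1 (Suclg2) and 2.98%, and the cAMP element TGACGTCA in 2 (Mdh2 and Ogdh) and 1.55%. The AP-1 motif TGANTCA and the NBRE AAAGGTCA, to which Nur77 binds as a monomer, matched in 0 of the 30 members and in 6.75% and 1.34% of all windows. The member windows were richer in G and C than all windows, with a median of 62.0% against 52.4%. Their median number of CpG was 17 against 6. The part of this base composition in the differences between these shares was not tested. Both strands were searched. The start site of the Suclg2 window lies 25964 bases upstream of the one annotated for the transcript counted here. Its matches therefore do not describe the start of that transcript. The counted transcripts of Sucla2, Mdh2 and Mdh1 are annotated to start at -121, -169 and -259 from the start site of their windows. The matches in Sucla2 (-45 to -36) and Mdh2 (-127 to -120) thus lie downstream of that annotated start, as does the whole Mdh1 window. Those of Aco1 (-184) and Suclg1 (-123) also start inside their windows. A match is a description of letters, not a bound site, and no match says only that these letters are not in this window.

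Slc25a1, the mitochondrial citrate carrier, was the other member of the export branch that rose. BMDM-WT libraries held 37.8, 38.4, 39.2 and 41.8 at 0 h, 38.0, 39.4, 36.0 and 34.5 at 1 h, 46.5, 46.1, 44.99 and 43.5 at 5 h, then 61.4, 57.0, 51.9 and 59.0 at 18 h, in CPM. BMDM-Nur77-KO libraries held 32.7, 34.8, 36.7 and 41.2 at 0 h, 44.4, 36.4, 34.1 and 32.6 at 1 h, 31.4, 41.2, 49.5 and 49.1 at 5 h, then 62.0, 57.6, 55.4 and 51.5 at 18 h. At 18 h every library of either genotype exceeded every library at 0 h, with log2 fold changes of 0.54 ± 0.10 and 0.62 ± 0.10 (edgeR adjusted p = 3.5e-05 and 4.5e-06). With library totals alone, neither change was called (0.18 in both, adjusted p = 0.19). The differences between genotypes lay between -0.11 and -0.01, and none was called.

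Acly, which cleaves cytosolic citrate to acetyl-CoA, passed the test in no comparison of LPS or genotype. Its CPM in BMDM-WT were 148, 155, 162 and 168 at 0 h, 163, 145, 156 and 158 at 1 h, 168, 170.4, 179 and 162 at 5 h, then 146, 153, 153 and 149 at 18 h. The knockout libraries were at 158, 154, 156 and 165 at 0 h, 146, 153, 155 and 161 at 1 h, 123, 152, 186 and 183 at 5 h, then 158, 159, 147 and 117 at 18 h. The group means stayed between 145.5 and 169.8 CPM. At 5 h its BMDM-Nur77-KO libraries were spread from 123 to 186 CPM, a wider range than in any other group.

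Of the subunits of the pyruvate dehydrogenase complex, Dld changed most. Pdha1, the catalytic alpha subunit that the kinases phosphorylate, was not called in any comparison with LPS or between genotypes, with group means of 25.3 to 28.9 RPKM. Without the libraries that stand apart it was called lower in the knockout at 18 h (-0.22, edgeR adjusted p = 0.046). Counts of Pdha1 may hold reads of Map3k15, whose exons overlap 16.1% of its exon bases on the opposite strand, since the use of strand in counting is not stated. Dld, the dihydrolipoyl dehydrogenase shared with the 2-oxoglutarate dehydrogenase complex, rose by 0.88 ± 0.16 in BMDM-WT and 0.93 ± 0.16 in BMDM-Nur77-KO at 5 h (edgeR adjusted p = 1.5e-05 and 6.0e-06; 0.24 and 0.28 with library totals alone, neither called). Pdhb, the beta subunit, rose at 5 h by 0.30 ± 0.07 in BMDM-WT and 0.16 ± 0.07 in BMDM-Nur77-KO (-0.34 and -0.47 with library totals alone), and at 18 h by 0.26 ± 0.07 in BMDM-Nur77-KO (-0.19). The call at 5 h in BMDM-Nur77-KO was lost under 5 of 17 alternatives, namely without replicate 1 or 4 at 0 h, without replicate 2 or 4 at 5 h and in a fit of the compared libraries only (adjusted p from 0.062 to 0.094). Dlat, the acetyltransferase core, rose by 0.16 ± 0.07 at 18 h in BMDM-WT (-0.21 with library totals alone), and Pdhx, which ties Dld to that core, by 0.21 ± 0.09 at 5 h in BMDM-Nur77-KO (-0.43). Without the libraries that stand apart, Pdhx at 5 h was at 0.11 and not called, and its call was also lost without replicate 1 or 3 at 0 h or replicate 1 at 5 h of that genotype alone. The Dlat call was lost without any one of BMDM-WT replicates 1, 3 and 4 at 0 h or replicates 1, 3 and 4 at 18 h.

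The kinases of the complex exchanged places. Pdk1 libraries of BMDM-WT held 132, 138, 138 and 134 at 0 h, 128, 124, 140.1 and 150.2 at 1 h, 72.3, 69.6, 67.5 and 74.9 at 5 h, then 39.3, 41.5, 41.3 and 37.0 at 18 h, in CPM. Those of BMDM-Nur77-KO held 135, 148, 140.3 and 132 at 0 h, 116, 121, 123 and 125 at 1 h, 66.5, 69.1, 70.9 and 71.8 at 5 h, then 38.5, 35.8, 34.0 and 37.5 at 18 h. The kinase was lower in every library at 5 h than at 0 h or 1 h, and lower again at 18 h, with log2 fold changes of -0.94 ± 0.06 and -1.77 ± 0.06 in BMDM-WT and -1.01 ± 0.06 and -1.94 ± 0.06 in BMDM-Nur77-KO (edgeR adjusted p from 6.4e-22 to 2.5e-14). A small fall at 1 h, -0.21 ± 0.06, was called in BMDM-Nur77-KO alone, and that call was lost without replicate 2 at 0 h or replicate 1 at 1 h (adjusted p = 0.090 and 0.079). The difference between the genotypes in that change was not called (-0.21 ± 0.09, adjusted p = 0.43).

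Pdk2 dipped and partly came back. BMDM-WT libraries were at 8.93, 10.7, 12.8 and 9.68 at 0 h, 11.0, 9.26, 7.61 and 7.74 at 1 h, 2.19, 2.40, 1.80 and 1.06 at 5 h, then 5.09, 5.10, 6.29 and 4.63 at 18 h, in CPM. BMDM-Nur77-KO libraries were at 11.7, 9.57, 9.06 and 11.5 at 0 h, 10.2, 9.56, 9.71 and 9.48 at 1 h, 1.29, 2.59, 2.32 and 1.97 at 5 h, then 4.84, 4.44, 3.94 and 4.10 at 18 h. At 5 h all 8 libraries lay at or below 2.59 CPM, a fall of 2.50 ± 0.19 and 2.34 ± 0.18 on the log2 scale from 0 h, and at 18 h the levels stood between those of 5 h and 0 h. The remaining change at 18 h was -0.99 ± 0.15 in BMDM-WT and -1.28 ± 0.16 in BMDM-Nur77-KO. All 4 changes were called (edgeR adjusted p from 4.9e-13 to 1.5e-06).

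Pdk3 went the other way. In BMDM-WT its CPM were 13.3, 13.5, 12.3 and 12.7 at 0 h, 16.0, 13.3, 15.2 and 14.0 at 1 h, 22.2, 21.3, 26.1 and 25.7 at 5 h, then 32.6, 31.5, 32.0 and 31.2 at 18 h. The knockout libraries were at 13.7, 12.6, 11.6 and 13.5 at 0 h, 13.7, 13.2, 13.3 and 13.1 at 1 h, 19.4, 17.6, 17.8 and 18.2 at 5 h, then 35.5, 35.9, 32.4 and 38.9 at 18 h. Every library at 5 h and 18 h lay above every library at 0 h and 1 h of its genotype, with rises of 0.87 ± 0.08 and 1.29 ± 0.08 in BMDM-WT and 0.49 ± 0.08 and 1.46 ± 0.08 in BMDM-Nur77-KO (edgeR adjusted p from 9.4e-17 to 2.7e-06). The rise at 5 h in BMDM-Nur77-KO turned to -0.14 with library totals alone, while the other 3 stayed above 0. At 5 h the genotypes did not overlap, and Pdk3 was lower in BMDM-Nur77-KO, at -0.38 ± 0.08 (adjusted p = 9.3e-04), or -0.42 without the libraries that stand apart, and the call was lost in a fit of the compared libraries only (-0.39, adjusted p = 0.085). The difference between genotypes in the change with LPS at 5 h was -0.38 ± 0.11 (adjusted p = 0.062, not called), and without those libraries it was -0.41 and was called (adjusted p = 0.024).

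Since levels of different genes can be set side by side per length, the make-up of the kinases was taken from RPKM. Pdk1 held 70.7% ± 0.74 (SD, n = 4) of the summed kinase RPKM in BMDM-WT at 0 h and 30.6% ± 0.90 at 18 h, while Pdk3 went from 16.6% ± 0.97 to 60.0% ± 1.5. In BMDM-Nur77-KO, Pdk1 went from 71.4% ± 2.8 to 27.3% ± 0.85 and Pdk3 from 16.2% ± 1.2 to 65.3% ± 1.4. At 5 h the shares were in between, 53.2% ± 2.4 for Pdk1 and 43.6% ± 3.0 for Pdk3 in BMDM-WT, and 58.5% ± 1.1 and 37.6% ± 2.0 in BMDM-Nur77-KO. The library ranges of the genotypes did not overlap at 5 h or 18 h for the share of Pdk1. With all transcripts of each gene summed, the shares of Pdk1 at 18 h were 43.8% in BMDM-WT and 40.5% in BMDM-Nur77-KO and those of Pdk3 43.1% and 48.5%. That sum counts tags shared between transcripts more than once. Pdk1 has 2 transcripts, the lesser with 0.996 of the total of the other, while Pdk3 has 1. The sum therefore raises the share of Pdk1 and cannot decide the order of these kinases. Summed over the 4 kinases, the level fell less than Pdk1 did, from 37.0 ± 1.2 RPKM at 0 h to 25.8 ± 1.0 at 5 h and 25.1 ± 0.80 at 18 h in BMDM-WT, and from 37.5 ± 0.93 to 22.9 ± 0.345 and 25.8 ± 1.6 in BMDM-Nur77-KO.

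**Figure D3:**
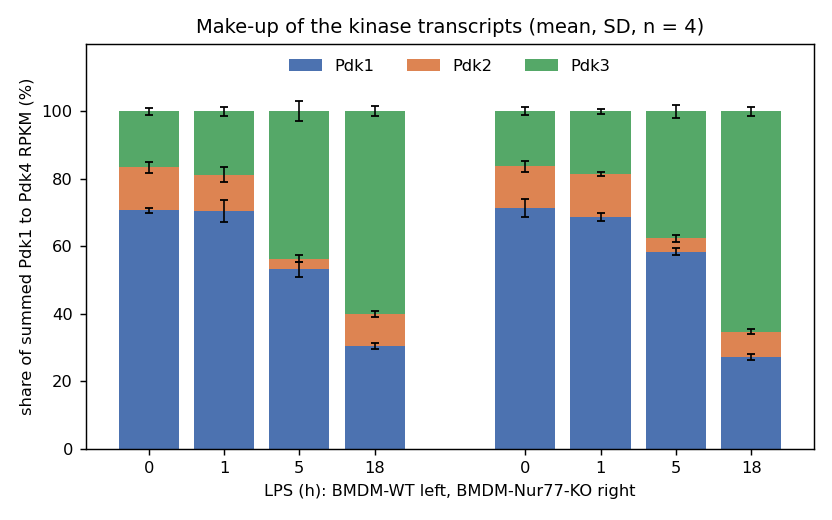
Share of Pdk1, Pdk2 and Pdk3 in the summed RPKM of Pdk1 to Pdk4 (stacked bars from 0 to 100%, mean of 4 libraries, bars of error show the SD) by hours of LPS in BMDM-WT (left) and BMDM-Nur77-KO (right). Pdk1 shrinks from 70.7% to 30.6% in BMDM-WT while Pdk3 grows from 16.6% to 60.0%, and Pdk4 is too low to be seen.

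The phosphatases that reactivate the complex fell early and recovered. Pdp1 stood at 29.0, 24.7, 29.0 and 25.3 at 0 h, 21.3, 18.4, 17.4 and 20.1 at 1 h, 34.8, 27.8, 29.0 and 37.8 at 5 h, then 30.0, 34.8, 38.8 and 29.5 at 18 h in BMDM-WT, in CPM. In BMDM-Nur77-KO it stood at 33.5, 29.5, 34.1 and 26.4 at 0 h, 19.3, 19.9, 17.6 and 23.8 at 1 h, 32.2, 31.8, 25.1 and 29.4 at 5 h, then 35.0, 32.7, 36.0 and 34.2 at 18 h. All 8 libraries at 1 h lay below all those at 0 h, a change of -0.49 ± 0.11 and -0.63 ± 0.11 (edgeR adjusted p = 0.0016 and 1.0e-04), and the levels at 5 h overlapped those at 0 h in both genotypes. In BMDM-WT, Pdp1 was called higher at 5 h (0.25 ± 0.11) and 18 h (0.30 ± 0.11), calls that were each lost without any one of several libraries (among them replicates 2 and 4 at 0 h) and that turned to -0.38 and -0.068 with library totals alone.

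Pdp2, the lower of the 2 phosphatases per length, held 11.4, 10.5, 9.75 and 12.2 at 0 h, 6.74, 6.87, 6.94 and 5.44 at 1 h, 9.67, 10.3, 11.7 and 10.8 at 5 h, then 20.7, 18.2, 21.7 and 18.9 at 18 h in BMDM-WT, in CPM. BMDM-Nur77-KO held 10.9, 9.76, 10.1 and 11.0 at 0 h, 8.42, 6.87, 7.08 and 7.22 at 1 h, 9.90, 7.86, 9.37 and 9.86 at 5 h, then 18.6, 18.1, 20.4 and 14.6 at 18 h. Again every library at 1 h was below every library at 0 h, with falls of 0.75 ± 0.11 and 0.50 ± 0.11 on the log2 scale, and every library at 18 h was above it, with rises of 0.86 ± 0.10 and 0.77 ± 0.10. These 4 changes were called (edgeR adjusted p from 1.4e-08 to 0.0012). The summed phosphatase level in BMDM-WT was 12.4 ± 0.84 RPKM at 0 h, 8.59 ± 0.64 at 1 h and 16.3 ± 1.8 at 18 h.

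From citrate to succinyl-CoA, 4 of the 5 isocitrate dehydrogenase genes were lower at 18 h in both genotypes, the exception being Idh3b. Idh1, the cytosolic NADP-dependent isocitrate dehydrogenase and the most abundant member in unstimulated cells, stood at 271, 207, 283 and 262 at 0 h, 278, 243, 245 and 235 at 1 h, 100.1, 95.4, 99.6 and 86.1 at 5 h, then 121, 116, 129 and 118 at 18 h in BMDM-WT, in CPM. In BMDM-Nur77-KO it stood at 314, 274, 292 and 306 at 0 h, 297, 283, 257 and 269 at 1 h, 128, 137, 141 and 126 at 5 h, then 102, 96.3, 86.5 and 100.3 at 18 h. All libraries at 5 h and 18 h lay below all those at 0 h, with changes of -1.43 ± 0.08 and -1.08 ± 0.08 in BMDM-WT and -1.17 ± 0.08 and -1.64 ± 0.08 in BMDM-Nur77-KO (edgeR adjusted p from 4.1e-17 to 9.2e-13).

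The genotypes crossed for Idh1. BMDM-Nur77-KO was higher by 0.49 ± 0.08 at 5 h and lower by 0.34 ± 0.08 on the log2 scale at 18 h (edgeR adjusted p = 1.3e-04 and 0.0034), and the libraries of the genotypes did not overlap at either time. Both calls held under all 17 alternatives, with 0.50 and -0.36 without the libraries that stand apart. The fall with LPS at 18 h was deeper in BMDM-Nur77-KO, with a difference of -0.56 ± 0.12 (adjusted p = 0.0015), a call kept under all 25 alternatives, whereas at 5 h the difference in the change was 0.27 ± 0.12 (adjusted p = 0.26).

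Idh2, the mitochondrial NADP-dependent enzyme, fell furthest at 18 h. Its CPM in BMDM-WT were 53.1, 50.4, 54.3 and 55.6 at 0 h, 52.5, 49.7, 52.5 and 46.2 at 1 h, 38.2, 39.5, 39.6 and 33.6 at 5 h, then 16.1, 13.2, 12.9 and 14.7 at 18 h. The knockout libraries were at 39.6, 47.8, 43.3 and 45.4 at 0 h, 52.6, 46.8, 47.7 and 48.7 at 1 h, 26.7, 32.96, 38.2 and 36.5 at 5 h, then 10.2, 10.3, 9.99 and 8.77 at 18 h. The groups at 18 h lay far below all others, at -1.90 ± 0.09 in BMDM-WT and -2.18 ± 0.10 in BMDM-Nur77-KO against 0 h, after -0.51 ± 0.09 and -0.40 ± 0.09 at 5 h (edgeR adjusted p from 9.8e-19 to 1.9e-04). Between genotypes, Idh2 was lower in BMDM-Nur77-KO by 0.27 ± 0.09 at 0 h and 0.54 ± 0.10 at 18 h on the log2 scale (adjusted p = 0.038 and 1.4e-04), with no overlap at either time. The call at 18 h held under all 17 alternatives, and that at 0 h was lost under 9, among them the removal of BMDM-WT replicate 1, 3 or 4 or of BMDM-Nur77-KO replicate 1 or 3. Because Idh2 fell later than Idh1, the share of Idh1 in the RPKM of both dipped from 78.3% ± 1.9 at 0 h to 65.7% ± 0.79 at 5 h and reached 86.5% ± 1.4 at 18 h in BMDM-WT. The shares in BMDM-Nur77-KO were 83.6% ± 1.8, 75.1% ± 2.7 and 88.1% ± 1.2.

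**Figure D4:**
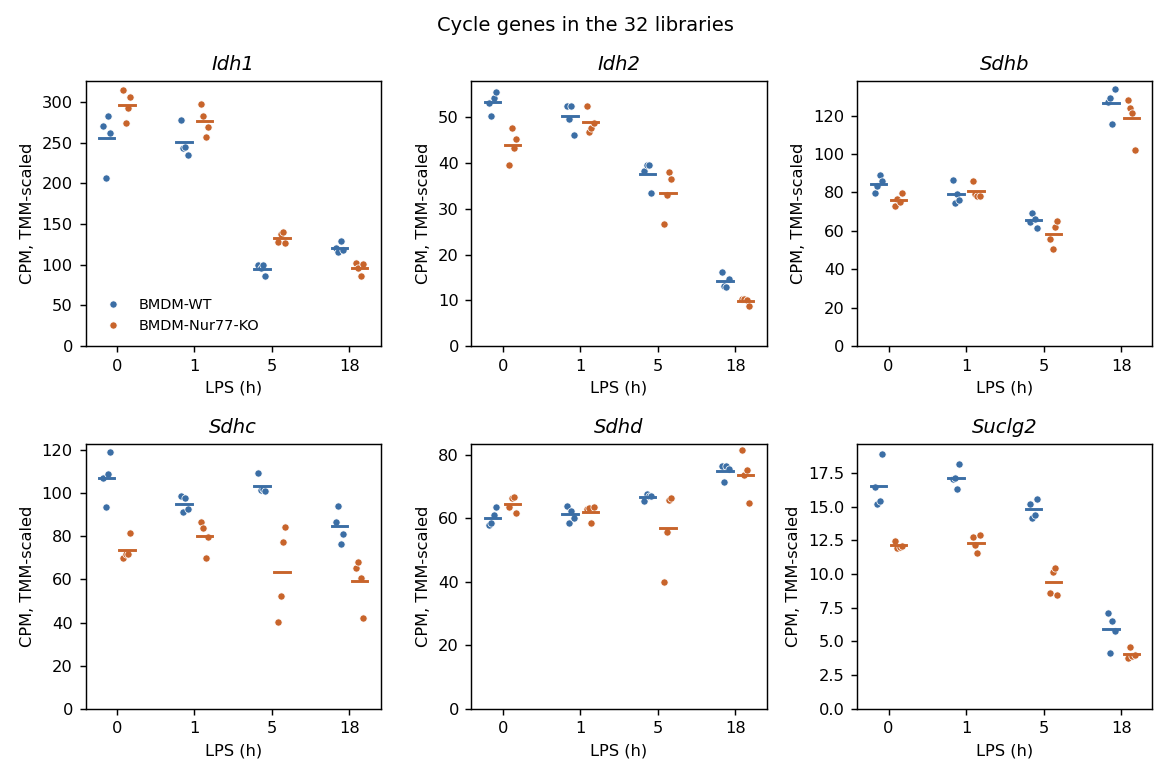
CPM of Idh1, Idh2, Sdhb, Sdhc, Sdhd and Suclg2 in each library (points) with group means (bars), by hours of LPS, in BMDM-WT and BMDM-Nur77-KO, on axes that start at 0. Idh1 is higher in BMDM-Nur77-KO at 5 h and lower at 18 h, Idh2 and Suclg2 drop at 18 h, and Sdhb rises at 18 h while Sdhc does not.

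The subunits of the NAD-dependent isocitrate dehydrogenase were all called lower at 5 h in BMDM-WT and parted at 18 h. The catalytic Idh3a fell at 18 h by 1.47 ± 0.09 in BMDM-WT and 1.61 ± 0.09 in BMDM-Nur77-KO on the log2 scale, after -0.19 ± 0.08 and -0.35 ± 0.08 at 5 h, and the regulatory Idh3g fell by 0.80 ± 0.10 and 0.76 ± 0.10 at 18 h, after -0.56 ± 0.10 and -0.19 ± 0.10 at 5 h, of which the second was not called. Idh3b, the other regulatory subunit, was at -0.24 ± 0.07 at 5 h in BMDM-WT and -0.13 ± 0.07 (not called) in BMDM-Nur77-KO, and at 0.05 and -0.03 at 18 h and not called. Per length, Idh3a went from 14.9 to 5.40 RPKM in BMDM-WT while Idh3b stayed at 51.1 and 52.7 RPKM. The call of Idh3a at 5 h in BMDM-WT was lost under 13 of 17 alternatives. That of Idh3b was lost under 1, with DESeq2's size factors in edgeR (-0.16, adjusted p = 0.052).

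Cs, the citrate synthase, rose by 0.28 ± 0.09 at 5 h in BMDM-WT (-0.35 with library totals alone) and was not called in BMDM-Nur77-KO (0.14 ± 0.09). Aco1, the cytosolic aconitase that also binds iron-responsive elements in RNA, was lower at 18 h by 0.42 ± 0.09 and 0.64 ± 0.09 on the log2 scale, after -0.23 ± 0.09 and -0.36 ± 0.09 at 5 h. The call at 5 h in BMDM-WT was lost under 7 of 17 alternatives, among them the removal of replicate 3 or 4 at 0 h or of replicate 1 or 2 at 5 h. Ogdh, the first subunit of the 2-oxoglutarate dehydrogenase complex, was called in a comparison with LPS only at 5 h in BMDM-Nur77-KO (-0.21 ± 0.07).

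Dlst, the succinyltransferase of that complex, stood at 103, 93.2, 106 and 112 at 0 h, 108, 110.3, 115 and 114 at 1 h, 131, 128, 130.1 and 122 at 5 h, then 105, 103, 95.0 and 106 at 18 h in BMDM-WT, in CPM. In BMDM-Nur77-KO it stood at 105, 107, 106 and 113 at 0 h, 140.3, 121, 131 and 125 at 1 h, 123, 127, 134 and 141 at 5 h, then 102, 109, 97.4 and 95.6 at 18 h. It was highest at 5 h in BMDM-WT, with a rise of 0.29 ± 0.06, and rose in BMDM-Nur77-KO by 0.25 ± 0.06 at 1 h and 0.27 ± 0.06 at 5 h (edgeR adjusted p from 1.9e-04 to 0.0056). The rises at 5 h turned to -0.34 and -0.35 with library totals alone. The rise at 1 h in BMDM-Nur77-KO was then 0.15 and not called (edgeR adjusted p = 0.21). At 1 h Dlst was higher in BMDM-Nur77-KO by 0.21 ± 0.06 (adjusted p = 0.043), without overlap of the genotypes, a call that was lost under 10 of 17 alternatives and without any 1 of 7 of the 8 libraries compared.

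Suclg2 encodes the beta subunit of the GTP-forming succinyl-CoA ligase and was the one member called lower in BMDM-Nur77-KO at all 4 times. BMDM-WT libraries held 16.5, 15.2, 15.5 and 18.9 at 0 h, 17.0, 17.1, 16.3 and 18.2 at 1 h, 15.2, 14.1, 14.4 and 15.6 at 5 h, then 7.10, 4.16, 6.55 and 5.75 at 18 h, in CPM. BMDM-Nur77-KO libraries held 12.5, 11.9, 12.0 and 12.1 at 0 h, 12.7, 12.2, 11.5 and 12.9 at 1 h, 8.61, 10.1, 10.4 and 8.48 at 5 h, then 3.77, 4.62, 3.94 and 4.02 at 18 h. The genotypes did not overlap at 0, 1 or 5 h and overlapped at 18 h, where 1 BMDM-WT library lay at 4.16 CPM. The differences were -0.44 ± 0.10, -0.47 ± 0.10, -0.65 ± 0.11 and -0.54 ± 0.12 on the log2 scale (edgeR adjusted p = 0.0036, 0.0025, 8.1e-05 and 0.0018). The first 3 held under all 17 alternatives and the last under 16, being lost in a fit of the compared libraries only (adjusted p = 0.070). With LPS, Suclg2 fell at 18 h by 1.48 ± 0.11 in BMDM-WT and 1.58 ± 0.12 in BMDM-Nur77-KO, and no difference between the genotypes in its change was called. Counts of Suclg2 were at least 42 in each library. The fall at 5 h was -0.37 ± 0.11 in BMDM-Nur77-KO and not called in BMDM-WT (-0.16 ± 0.10). Sucla2, of the ATP-forming ligase, was called with LPS only at 5 h in BMDM-Nur77-KO, where it rose by 0.51 ± 0.15 (edgeR adjusted p = 0.0032; -0.14 with library totals alone, 0.22 without the libraries that stand apart, and 0.22 with an adjusted p of 0.069 without replicate 1 at 5 h alone). At 18 h it was at -0.03 and -0.00, and the shared alpha subunit Suclg1 fell by 0.24 ± 0.07 and 0.38 ± 0.07.

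Succinate dehydrogenase, which is both a cycle enzyme and complex II of the respiratory chain, also split by subunit. Sdha, the flavoprotein that holds the active site, stood at 199, 187, 203 and 211 at 0 h, 199, 202, 196 and 185 at 1 h, 201, 207, 212 and 197 at 5 h, then 199, 189.8, 190.3 and 189.9 at 18 h in BMDM-WT, in CPM. In BMDM-Nur77-KO it stood at 202, 195, 203 and 192 at 0 h, 209, 201, 198 and 204 at 1 h, 209, 195, 204 and 201 at 5 h, then 199, 193, 186 and 198 at 18 h. All 32 libraries lay between 185 and 212 CPM, and no comparison was called for Sdha.

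Sdhb, the iron-sulfur subunit, dipped and then rose. Its CPM in BMDM-WT were 79.8, 83.6, 89.0 and 86.1 at 0 h, 86.3, 74.4, 79.4 and 76.2 at 1 h, 64.8, 69.5, 66.1 and 61.7 at 5 h, then 127, 129, 116 and 134 at 18 h. The knockout libraries were at 72.9, 76.4, 75.0 and 79.7 at 0 h, 86.2, 79.3, 78.3 and 78.2 at 1 h, 55.7, 50.6, 62.0 and 65.0 at 5 h, then 128, 124, 122 and 102 at 18 h. Each library at 5 h lay below each at 0 h and each at 18 h lay above, with changes of -0.38 ± 0.08 and 0.58 ± 0.08 in BMDM-WT and -0.39 ± 0.08 and 0.63 ± 0.08 in BMDM-Nur77-KO (edgeR adjusted p from 1.6e-08 to 9.4e-05). The rise at 18 h was 0.21 and 0.19 with library totals alone, and in BMDM-Nur77-KO it was then not called.

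Sdhc, a membrane anchor of the complex, was lower in the knockout. BMDM-WT stood at 107, 93.8, 109 and 119 at 0 h, 98.7, 91.4, 97.7 and 92.7 at 1 h, 109, 101, 102 and 101 at 5 h, then 86.8, 94.2, 76.4 and 81.2 at 18 h, in CPM. BMDM-Nur77-KO stood at 70.0, 71.9, 71.98 and 81.6 at 0 h, 86.7, 83.8, 70.0 and 79.7 at 1 h, 40.5, 52.5, 77.4 and 84.4 at 5 h, then 65.4, 68.2, 60.6 and 42.0 at 18 h. The genotypes did not overlap at any of the 4 times, and the differences were -0.53 ± 0.15, -0.25 ± 0.15, -0.70 ± 0.15 and -0.53 ± 0.15 (edgeR adjusted p = 0.014, 0.42, 0.0012 and 0.0092), of which that at 1 h was not called. Over all genes, 18.6% to 22.8% had no overlap between genotypes at these times. The BMDM-Nur77-KO libraries at 5 h were the most widely spread of the 8 groups, and without those that stand apart the differences at 5 h and 18 h were -0.54 and -0.39, both called. In a fit of the compared libraries only, the call at 5 h was lost (-0.70, adjusted p = 0.10). Removing BMDM-Nur77-KO replicate 1 or BMDM-WT replicate 4 at 0 h ended the call at 0 h (adjusted p = 0.051 and 0.055), and removing BMDM-Nur77-KO replicate 4 ended that at 18 h (0.054). The call of a fall with LPS at 18 h, -0.34 ± 0.15 and -0.34 ± 0.15, was lost under 9 and 11 of 17 alternatives.

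Sdhd, the other anchor, had CPM of 57.8, 58.5, 61.1 and 63.4 at 0 h, 63.9, 58.6, 62.4 and 60.2 at 1 h, 65.4, 67.7, 67.1 and 66.9 at 5 h, then 76.4, 71.6, 76.6 and 75.5 at 18 h in BMDM-WT. BMDM-Nur77-KO had 63.7, 66.4, 66.6 and 61.8 at 0 h, 62.9, 63.2, 58.6 and 63.4 at 1 h, 40.0, 55.5, 65.8 and 66.2 at 5 h, then 81.4, 73.7, 75.1 and 64.8 at 18 h. It was slightly higher at 18 h, called in BMDM-WT (0.32 ± 0.09, edgeR adjusted p = 0.0033; -0.050 with library totals alone) and not in BMDM-Nur77-KO (0.18 ± 0.09). At 5 h in BMDM-Nur77-KO replicate 1, which stands apart, was at 40.0 CPM, below every other library.

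After succinate, Fh1, the fumarate hydratase, fell by 0.26 ± 0.08 at 5 h and 1.36 ± 0.09 at 18 h in BMDM-WT and by 0.33 ± 0.08 and 1.31 ± 0.09 in BMDM-Nur77-KO on the log2 scale. Its mean level in BMDM-WT went from 15.4 to 5.99 RPKM. Mdh1, the cytosolic malate dehydrogenase, fell by 0.72 ± 0.08 at 18 h in BMDM-WT and by 1.05 ± 0.08 in BMDM-Nur77-KO, and was lower in BMDM-Nur77-KO at that time by 0.31 ± 0.08 (edgeR adjusted p = 0.0057; -0.26 without the libraries that stand apart). The difference in its change, -0.33 ± 0.11, was not called (adjusted p = 0.064; 0.038 without those libraries). Mdh2, the mitochondrial enzyme, was called with LPS only at 5 h in BMDM-Nur77-KO (-0.39 ± 0.13, adjusted p = 0.012; 0.074 without BMDM-Nur77-KO replicate 1 at 5 h).

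Counted over the 4 times, 12 of the 32 members were called between genotypes at 1 time or more and 5 at 2 times or more, beside 43.7% and 14.4% of all tested genes. At 0 h the knockout had 0 higher and 4 lower (Acod1, Idh2, Sdhc and Suclg2), beside 6.29% and 6.38% of all genes in edgeR, and 6 had an unadjusted p under 0.05. DESeq2 called 1 higher. Without BMDM-Nur77-KO replicate 1 or BMDM-WT replicate 4, 2 were called lower. At 1 h, 1 was higher (Dlst) and 1 lower (Suclg2), beside 3.47% and 3.04% of all genes, and without BMDM-Nur77-KO replicate 3 the count of lower members was 2.

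At 5 h, 2 members were higher (Idh1 and Dld) and 5 lower (Sdhc, Suclg2, Mdh2, Pdk3 and Ogdh), beside 13.5% and 10.6% of all genes. The differences of the weaker ones were 0.42 ± 0.16 for Dld, -0.39 ± 0.14 for Mdh2 and -0.20 ± 0.07 for Ogdh, with edgeR adjusted p between 0.036 and 0.049, and they were lost under 11, 9 and 8 of 17 alternatives. Without both libraries that stand apart, Dld, Mdh2 and Ogdh were at 0.17, -0.23 and -0.13 and not called, which left 1 member higher and 3 lower. Leaving out BMDM-Nur77-KO replicate 1 or 2, or BMDM-WT replicate 1, 2 or 3, likewise gave 1 and 3, and leaving out BMDM-Nur77-KO replicate 4 gave 4 and 8.

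At 18 h, 2 members were higher (Acod1 and Pdhb) and 5 lower (Idh2, Suclg2, Sdhc, Idh1 and Mdh1), beside 11.7% and 9.8% of all genes. With library totals alone the calls over all genes at 18 h were 951 higher and 1831 lower, against 1316 and 1105 with TMM factors. Pdhb was higher by 0.26 ± 0.07 (edgeR adjusted p = 0.0059; 0.15 and not called with library totals alone, and adjusted p = 0.087 in a fit of the compared libraries only). At 0, 1, 5 and 18 h, 5, 7, 7 and 6 of the 32 members did not overlap between genotypes, beside 22.8%, 19.5%, 18.6% and 20.9% of all genes. The median difference of the members was 0.00, 0.02, -0.07 and -0.07 at these times, beside -0.03, 0.00, 0.02 and -0.01 over all genes.

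**Figure D5:**
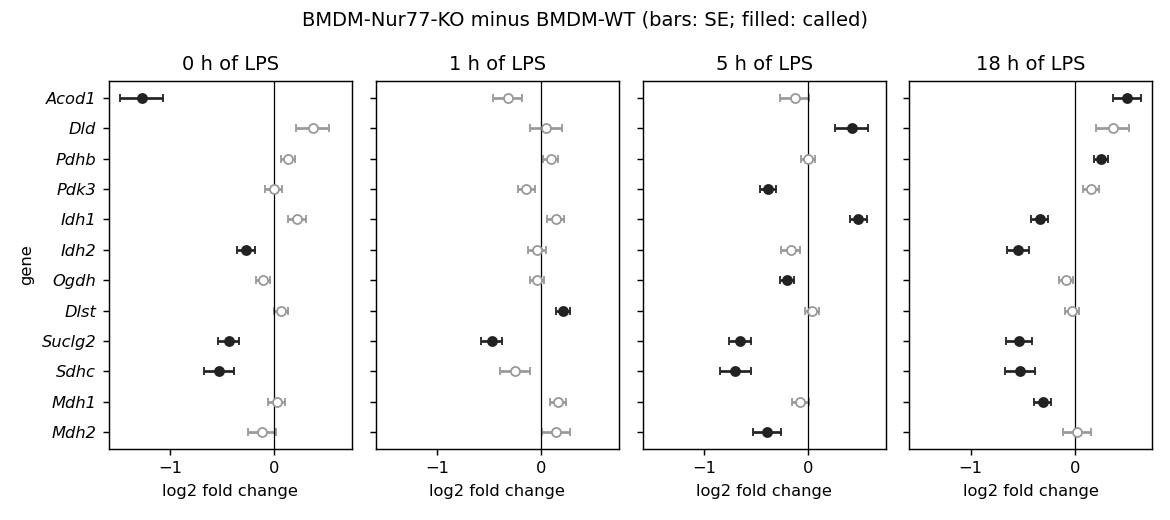
Log2 difference of BMDM-Nur77-KO from BMDM-WT (points, with the SE as bars) at 0, 1, 5 and 18 h of LPS for the 12 members called at 1 time or more, filled where called. Suclg2 lies left of 0 in all 4 panels, Acod1 is left at 0 h (-1.28) and right at 18 h (0.50), and Idh1 is right at 5 h (0.49) and left at 18 h (-0.34).

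With a log2 fold change over 1 also required, the members called between genotypes, beside the percent of all genes, were 0 higher (0.816%) and 1 lower (0.816%) at 0 h, 0 higher (0.683%) and 0 lower (0.443%) at 1 h, 0 higher (1.43%) and 0 lower (0.833%) at 5 h, and 0 higher (2.46%) and 0 lower (1.33%) at 18 h.

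Whether the response to LPS differed between genotypes was tested as an interaction. At 1 h it was called in edgeR for 0 members in either direction, beside 0.0443% and 0.0266% of all genes, with 2 members at an unadjusted p under 0.05 and 0 called by DESeq2. At 5 h, 1 member (Acod1) was called with a higher log2 fold change in BMDM-Nur77-KO and 0 with a lower one, beside 1.73% and 1.37% of all genes, and 6 members had an unadjusted p under 0.05. At 18 h Acod1 was called with a higher log2 fold change in BMDM-Nur77-KO and Idh1 with a lower one, a deeper fall, beside 5.36% and 4.03%. With a log2 difference over 1 also required the counts were 0 higher (0%) and 0 lower (0%) at 1 h, 1 higher (0.443%) and 0 lower (0.186%) at 5 h, and 1 higher (1.62%) and 0 lower (0.736%) at 18 h.

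The 37 further genes of the pathway that were listed beside the members serve as its surroundings, and 29 of them were tested. With LPS at 18 h, 11 rose and 14 fell in BMDM-WT (32.3% and 33.9% of all genes), and 11 rose and 13 fell in BMDM-Nur77-KO (33.7% and 35.5%). At 5 h, 4 rose and 13 fell in BMDM-WT (30.0% and 40.1%), and 5 rose and 17 fell in BMDM-Nur77-KO (32.2% and 39.1%). At 1 h, 2 rose and 4 fell in BMDM-WT (10.2% and 10.2%), and 1 rose and 3 fell in BMDM-Nur77-KO (6.86% and 5.37%). As shares of the 29, the genes called in either direction at 18 h were 86.2% in BMDM-WT and 82.8% in BMDM-Nur77-KO.

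Among the 29, Adhfe1 and Acss2 rose furthest at 18 h in both genotypes. Acss2, the cytosolic acetyl-CoA synthetase, was at 3.33, 3.49, 4.20 and 2.67 at 0 h and 40.8, 32.1, 36.0 and 35.4 at 18 h in BMDM-WT, in CPM, and at 2.80, 3.32, 2.82 and 2.75 at 0 h and 26.9, 21.2, 24.8 and 21.0 at 18 h in BMDM-Nur77-KO. It rose at 18 h by 3.39 ± 0.13 in BMDM-WT and 2.98 ± 0.13 in BMDM-Nur77-KO and was lower in the latter at 18 h, by 0.63 ± 0.11 (edgeR adjusted p = 6.4e-05). Acss1, its mitochondrial counterpart, was at 45.4, 44.1, 40.4 and 42.7 at 18 h in BMDM-WT and 60.3, 66.6, 62.3 and 78.5 at 18 h in BMDM-Nur77-KO, a difference of 0.63 ± 0.09 (adjusted p = 2.7e-06). These enzymes of the cytosol and the mitochondrion thus differed between genotypes in opposite directions at 18 h, without overlap of libraries. Adhfe1, a transhydrogenase that forms 2-hydroxyglutarate, rose from 0.289 to 0.364 CPM at 0 h to 3.97 to 5.32 CPM at 18 h in BMDM-WT (3.83 ± 0.35).

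Among the 29, Lipt2 and Glul fell furthest at 18 h in BMDM-WT. Lipt2, which starts the lipoylation of the dehydrogenase complexes, fell by 2.80 ± 0.24 on the log2 scale at 18 h in BMDM-WT, from 5.60 to 7.28 CPM at 0 h to 0.473 to 1.57 CPM. Glul, the glutamine synthetase, fell by 2.39 ± 0.09, from 248 to 334 CPM to 55.1 to 55.7 CPM, and was lower at 18 h in BMDM-Nur77-KO (-0.53 ± 0.09, edgeR adjusted p = 5.0e-05). Me1, the cytosolic malic enzyme, was at 2.30, 1.68, 1.24 and 1.42 at 5 h and 5.55, 7.00, 9.26 and 5.57 at 18 h in BMDM-WT, in CPM, and at 0.968, 0.669, 0.676 and 0.788 at 5 h and 3.94, 5.51, 4.92 and 4.26 at 18 h in BMDM-Nur77-KO. It was lower in BMDM-Nur77-KO by 1.10 ± 0.29 at 5 h and 0.56 ± 0.17 at 18 h (adjusted p = 0.0071 and 0.017), and each call was lost without 1 or more single libraries, BMDM-WT replicate 1 at 5 h (adjusted p = 0.051), and BMDM-WT replicate 3 (0.10) or BMDM-Nur77-KO replicate 1 (0.057) at 18 h. In fits of the compared libraries only, neither was called (0.078 and 0.080). Between genotypes, the knockout had 2 of the 29 higher with 1 lower at 0 h (6.29% and 6.38% of all genes), 1 with 0 at 1 h (3.47% and 3.04%), 2 with 6 at 5 h (13.5% and 10.6%) and 1 with 5 at 18 h (11.7% and 9.8%). At 1 h edgeR gave 1 gene an unadjusted p under 0.05, namely Lipt2.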

How the data were processed

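RNA was sequenced in 32 libraries, 4 in each of 8 groups. The authors aligned reads to mm10 with HISAT2 2.1.0, after CASAVA 1.8.2, kept a mapping quality above 15 and counted tags per RefSeq transcript with HOMER without normalization. The deposited counts include multiples of 0.5 (each mate is 0.5 tag) and, as estimated counts, were rounded to whole numbers. Each gene is represented by its most counted transcript. Library totals were 8742362 to 15780926 counts, which limits precision for low genes only. RPKM and CPM were computed here with TMM factors, except that the RPKM of the expression filter used library totals alone. Genes with a mean over 1 RPKM in at least 1 group were tested with edgeR 4.0.16 (quasi-likelihood, 1 model of 8 group means, R 4.3.3) with Benjamini-Hochberg adjustment, and SE values are approximate. The edgeR test was tried on simulated counts for the comparison of genotypes at 18 h only. Changes with LPS and the interaction were not simulated. Alternatives were DESeq2 1.42.0, other filters and scalings, summed transcripts, a replicate block, fits of the compared libraries and the removal of each library. No values in the table were used from other samples. All 33 members could be named. Libraries' values are given for Acod1, Slc25a1, Acly, Idh1, Idh2, the kinases and phosphatases, the Sdh subunits and the 3 called members with the largest difference between genotypes at each time, and companion genes by the largest called changes; 1 companion gene that this rule would name is not reported here. The members and lists were chosen with earlier results of these data known. Comparisons with 0 h share those libraries.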

Additional observations from a re-analysis of the deposited data

Results flagged for a closer look

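Of 128 groups of 4 libraries checked, 7 held 1 library whose gap to the next was large against the range of the group, and chance gives about 1 in 20 such groups. Pdp2 in BMDM-WT at 1 h stood at 5.44 CPM in replicate 4, and the other 3 libraries at 6.74 to 6.94 CPM. Sdha in BMDM-WT at 18 h stood at 199 CPM in replicate 1, and the other 3 libraries at 189.8 to 190.3 CPM. Sdhb in BMDM-Nur77-KO at 1 h stood at 86.2 CPM in replicate 1, and the other 3 libraries at 78.2 to 79.3 CPM. Sdhc in BMDM-WT at 5 h stood at 109 CPM in replicate 1, and the other 3 libraries at 101 to 102 CPM. Sdhc in BMDM-Nur77-KO at 0 h stood at 81.6 CPM in replicate 4, and the other 3 libraries at 70.0 to 71.98 CPM. Sdhd in BMDM-Nur77-KO at 1 h stood at 58.6 CPM in replicate 3, and the other 3 libraries at 62.9 to 63.4 CPM. Dlst in BMDM-Nur77-KO at 0 h stood at 113 CPM in replicate 4, and the other 3 libraries at 105 to 107 CPM.

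The change with LPS differed between genotypes, by the interaction term in edgeR, for the genes below, given as the change in BMDM-Nur77-KO minus that in BMDM-WT on the log2 scale. For Acod1 at 5 h it was 1.15 ± 0.25 (SE, adjusted p = 0.0072). For Me1 at 5 h it was -1.34 ± 0.36 (SE, adjusted p = 0.034). For Acod1 at 18 h it was 1.78 ± 0.25 (SE, adjusted p = 9.6e-06). Both values for Acod1 include the difference of the genotypes at 0 h, -1.28 at low counts. For Acss1 at 18 h it was 0.63 ± 0.13 (SE, adjusted p = 0.0010). For Glud1 at 18 h it was -0.34 ± 0.07 (SE, adjusted p = 9.7e-04). For Glul at 18 h it was -0.67 ± 0.13 (SE, adjusted p = 4.6e-04). For Idh1 at 18 h it was -0.56 ± 0.12 (SE, adjusted p = 0.0015). For Slc25a12 at 18 h it was 0.46 ± 0.12 (SE, adjusted p = 0.011). The Me1 call was lost without any one of BMDM-Nur77-KO replicates 2 and 3 at 0 h or 5 h, BMDM-WT replicates 2 and 4 at 0 h, or BMDM-WT replicates 1 and 2 at 5 h (adjusted p from 0.051 to 0.11), and in a fit of the compared libraries only (0.062).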

How the results depend on the processing

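Counts of called members are given here as higher or lower for the comparison of genotypes, of LPS with 0 h, or for the interaction, where they moved by more than 1.5 times; the cause was not tested. With DESeq2's Wald test there were 1 higher for genotype 0 h, 2 higher for genotype 1 h, 2 higher for LPS BMDM-WT 1 h, 11 higher for LPS BMDM-WT 5 h, 2 lower for interaction 18 h. With DESeq2's size factors in edgeR there were 1 higher for genotype 0 h, 7 lower for LPS BMDM-WT 5 h, 2 lower for interaction 18 h. In fits of the compared libraries only there were 1 higher for genotype 0 h, 3 higher for genotype 1 h, 2 lower for genotype 1 h, 1 higher for genotype 5 h, 1 lower for genotype 5 h, 1 higher for genotype 18 h, 2 higher for LPS BMDM-WT 1 h, 11 higher for LPS BMDM-WT 5 h. Without both libraries that stand apart (chosen after seeing the data) there were 2 higher for genotype 0 h, 1 higher for genotype 5 h, 3 lower for genotype 5 h, 2 higher for LPS BMDM-WT 1 h, 1 lower for interaction 5 h, 2 lower for interaction 18 h. With a log2 fold change over 0.58 also required there were 1 lower for genotype 0 h, 0 higher for genotype 1 h, 0 lower for genotype 1 h, 0 higher for genotype 5 h, 2 lower for genotype 5 h, 0 higher for genotype 18 h, 0 lower for genotype 18 h, 1 lower for LPS BMDM-WT 1 h, 3 higher for LPS BMDM-WT 5 h, 3 lower for LPS BMDM-WT 5 h, 4 higher for LPS BMDM-WT 18 h, 1 higher for LPS BMDM-Nur77-KO 1 h, 1 lower for LPS BMDM-Nur77-KO 1 h, 2 higher for LPS BMDM-Nur77-KO 5 h, 3 lower for LPS BMDM-Nur77-KO 5 h, 0 lower for interaction 18 h. With a log2 fold change over 1 required there were 1 lower for genotype 0 h, 0 higher for genotype 1 h, 0 lower for genotype 1 h, 0 higher for genotype 5 h, 0 lower for genotype 5 h, 0 higher for genotype 18 h, 0 lower for genotype 18 h, 0 lower for LPS BMDM-WT 1 h, 1 higher for LPS BMDM-WT 5 h, 2 lower for LPS BMDM-WT 5 h, 2 higher for LPS BMDM-WT 18 h, 6 lower for LPS BMDM-WT 18 h, 1 higher for LPS BMDM-Nur77-KO 1 h, 0 lower for LPS BMDM-Nur77-KO 1 h, 1 higher for LPS BMDM-Nur77-KO 5 h, 3 lower for LPS BMDM-Nur77-KO 5 h, 2 higher for LPS BMDM-Nur77-KO 18 h, 0 lower for interaction 18 h. With the filter set at a mean of at least 1 count there were 0 higher for genotype 1 h, 1 higher for genotype 5 h. With the replicate number as a block there were 0 higher for genotype 1 h, 1 higher for genotype 5 h. With library totals alone (chosen after seeing the data) there were 0 higher for genotype 1 h, 3 lower for genotype 5 h, 1 higher for genotype 18 h, 10 lower for LPS BMDM-WT 1 h, 2 higher for LPS BMDM-WT 5 h, 29 lower for LPS BMDM-WT 5 h, 4 higher for LPS BMDM-WT 18 h, 23 lower for LPS BMDM-WT 18 h, 1 higher for LPS BMDM-Nur77-KO 1 h, 1 higher for LPS BMDM-Nur77-KO 5 h, 28 lower for LPS BMDM-Nur77-KO 5 h, 3 higher for LPS BMDM-Nur77-KO 18 h, 26 lower for LPS BMDM-Nur77-KO 18 h, 2 lower for interaction 18 h. With edgeR's own filter there were 1 higher for genotype 5 h. With all transcripts of a gene summed there were 1 higher for genotype 5 h.

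Leaving out 1 library at a time gave 0 to 1 higher for genotype 0 h, 2 to 4 lower for genotype 0 h, 0 to 1 higher for genotype 1 h, 1 to 2 lower for genotype 1 h, 1 to 4 higher for genotype 5 h, 3 to 8 lower for genotype 5 h, 2 to 3 higher for genotype 18 h, 4 to 5 lower for genotype 18 h, 1 higher for LPS BMDM-WT 1 h, 2 to 3 lower for LPS BMDM-WT 1 h, 6 to 7 higher for LPS BMDM-WT 5 h, 9 to 10 lower for LPS BMDM-WT 5 h, 6 to 8 higher for LPS BMDM-WT 18 h, 11 to 12 lower for LPS BMDM-WT 18 h, 2 higher for LPS BMDM-Nur77-KO 1 h, 2 to 3 lower for LPS BMDM-Nur77-KO 1 h, 5 to 7 higher for LPS BMDM-Nur77-KO 5 h, 13 to 15 lower for LPS BMDM-Nur77-KO 5 h, 6 to 8 higher for LPS BMDM-Nur77-KO 18 h, 11 to 12 lower for LPS BMDM-Nur77-KO 18 h, 0 to 1 higher for interaction 1 h, 0 lower for interaction 1 h, 1 higher for interaction 5 h, 0 to 1 lower for interaction 5 h, 1 higher for interaction 18 h, 1 to 2 lower for interaction 18 h.

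With library totals alone, these log2 fold changes changed sign to negative. For LPS BMDM-WT 5 h they were Acly -0.54, Cs -0.35, Dlat -0.60, Dlst -0.34, Me1 -0.57, Pdhb -0.34, Pdhx -0.55, Pdp1 -0.38, Sdha -0.61, Sdhd -0.49, Slc25a1 -0.44, Sucla2 -0.37. For LPS BMDM-WT 18 h they were Dlat -0.21, Idh3b -0.32, Ogdh -0.36, Pdhb -0.23, Pdp1 -0.068, Sdhd -0.050. For LPS BMDM-Nur77-KO 5 h they were Acly -0.60, Cs -0.47, Dlst -0.35, Pdhb -0.47, Pdhx -0.43, Pdk3 -0.14, Sdha -0.61, Slc25a1 -0.39, Sucla2 -0.14. For LPS BMDM-Nur77-KO 18 h they were Cs -0.26, Dlat -0.39, Mdh2 -0.36, Ogdh -0.41, Pdhb -0.19, Pdhx -0.41, Pdp1 -0.30, Sdhd -0.27.

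With all transcripts summed, which counts shared tags more than once, the shares became, for Pdk1 of Pdk1 to Pdk4 77.3% in BMDM-WT at 0 h, 77.8% in BMDM-WT at 1 h, 67.9% in BMDM-WT at 5 h, 43.8% in BMDM-WT at 18 h, 77.8% in BMDM-Nur77-KO at 0 h, 75.8% in BMDM-Nur77-KO at 1 h, 71.9% in BMDM-Nur77-KO at 5 h, 40.5% in BMDM-Nur77-KO at 18 h; for Pdk3 of Pdk1 to Pdk4 9.08% in BMDM-WT at 0 h, 10.3% in BMDM-WT at 1 h, 28.0% in BMDM-WT at 5 h, 43.1% in BMDM-WT at 18 h, 8.85% in BMDM-Nur77-KO at 0 h, 10.3% in BMDM-Nur77-KO at 1 h, 23.2% in BMDM-Nur77-KO at 5 h, 48.5% in BMDM-Nur77-KO at 18 h; for Idh1 of Idh1 and Idh2 87.8% in BMDM-WT at 0 h, 88.3% in BMDM-WT at 1 h, 79.3% in BMDM-WT at 5 h, 92.8% in BMDM-WT at 18 h, 91.0% in BMDM-Nur77-KO at 0 h, 89.5% in BMDM-Nur77-KO at 1 h, 85.7% in BMDM-Nur77-KO at 5 h, 93.7% in BMDM-Nur77-KO at 18 h.

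No pairing of the libraries by replicate number was seen. Of 112 pairs of groups and numbers, 29 had a correlation of deviations over 0.1, and the range was -0.70 to 0.46. Of 32 libraries, 2 correlated best with their own number. Such correlations cannot exclude that libraries of the same number shared a mouse or a culture. The block lost 8 of the 107 calls of single members and reversed 0. Over the 107 calls, 4 were lost with DESeq2, 17 in fits of the compared libraries only and 5 without both libraries that stand apart, and none of these reversed. Depth limited Nr4a1 at 5 h and 18 h, Adhfe1 at 0 h, and Pdk4, which could not be tested. Levels were also low for Me1 and Pdk2 at 5 h, Lipt2 at 18 h and Acod1 at 0 h. Pdk2 had as few as 9 counts in a library and Acod1 as few as 18.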
